A study of Mus musculus with 64 samples.

Results

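Cathepsins are the proteases of the lysosome, and cystatins are small proteins that block the cysteine proteases among them. The account covers 10 genes, chosen by symbol: the 8 cathepsin genes Ctsa, Ctsb, Ctsc, Ctsd, Ctsh, Ctsl, Ctss and Ctsz, and the 2 cystatin genes Cst3 and Cstb. All 10 were found among the 24530 gene symbols of the count table, and each had reads. They were followed through 64 single cells of mouse teeth, 32 from molars and 32 from incisors. The cells came from XLacZ4 mice, a reporter strain that carries a lacZ transgene. Cells that turned fluorescent with FDG, a substrate of beta-galactosidase, were sorted and sequenced with Smart-Seq2, a full-length method for polyA RNA. Every cell is labelled a pericyte, the contractile cell that wraps small vessels, and both tissues share the strain, the stain and the sort. The labels name no age, sex, treatment or animal, so each tissue counts as 1 sample, cells are not replicates, and no test between tissues or classes was possible.

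The cells were classed by 2 genes that are not among the 10. A mural-like cell had at least 500 counts per 1000000 reads (CPM) of Rgs5, a signalling regulator typical of pericytes, and no read of Csf1r, the receptor that keeps macrophages alive. A macrophage-class cell had at least 1 Csf1r read and under 500 CPM of Rgs5. This gave 47 macrophage-class cells (22 molar, 25 incisor), 15 mural-like cells (9 molar, 6 incisor) and 2 cells of neither class. Few cells lay near the bounds: the highest Rgs5 level of a macrophage-class cell was 167 CPM, the lowest of a mural-like cell was 570.4 in incisor cell 2 and the next lowest 14729, and the fewest Csf1r reads in a macrophage-class cell were 44. The 2 defining genes were left out of the check of the label against markers. All 11 other macrophage markers listed were read in the macrophage-class cells, and 8 of the 11, among them C1qa, Adgre1 and Mrc1, had no read in any mural-like cell. Their summed level was 2948 to 32562 CPM per macrophage-class cell and 0 to 33.3 CPM per mural-like cell. All 13 other mural markers were read in the mural-like cells, at a summed 1264 to 26338 CPM per cell. In macrophage-class cells 8 of the 13 had reads, at a summed 0 to 246 CPM per cell with a median of 0.682. Pdgfrb, Cspg4, Kcnj8, Higd1b and Tagln were at 0 there. Markers of other cell types were read in some cells. In the macrophage class the 6 fibroblast markers listed all had reads, at a summed 0 to 2178 CPM per cell. Dendritic cell markers reached 640 and dental epithelium markers 459 CPM there, and endothelial markers 1063 CPM in the mural-like class. The medians of these 4 sums were 0. Totals ran from 514492 to 2933124 reads per cell in the macrophage class (median 1428700) and from 1230795 to 3171734 in the mural-like class (median 2767910), and no 2 cells had identical counts. Incisor cell 2 stood apart, with 922 genes read, the fewest of any cell.

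Cathepsins are made as inactive precursors, tagged with mannose 6-phosphate, carried to the lysosome and cut to their active form at its acid pH. Macrophages use them to digest what they engulf and, in antigen presentation, to trim the chaperone of class II molecules. Cystatin C, from Cst3, is secreted and meets cathepsins outside the cell or in the endosome, while cystatin B, from Cstb, guards the cytosol against protease that leaks out.

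The 10 genes took up a larger part of the RNA in macrophage-class cells than in mural-like cells. They made up 1.92% of all reads in the macrophage class and 0.314% in the mural-like class. Among single macrophage-class cells the share was lowest in incisor cell 8 at 0.288%, had a median of 1.42% and reached 5.66% in molar cell 30. Mural-like cells ran from 0.0187% in incisor cell 2 through a median of 0.355% to 0.509% in incisor cell 28. Only 3 of the 47 macrophage-class cells lay at or below the highest mural-like cell, as the plot of share against depth shows. A macrophage-class cell had reads of 10 of the 10 genes in the median (lowest 4), and a mural-like cell of 5 (lowest 1, highest 8).

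**Figure D1:**
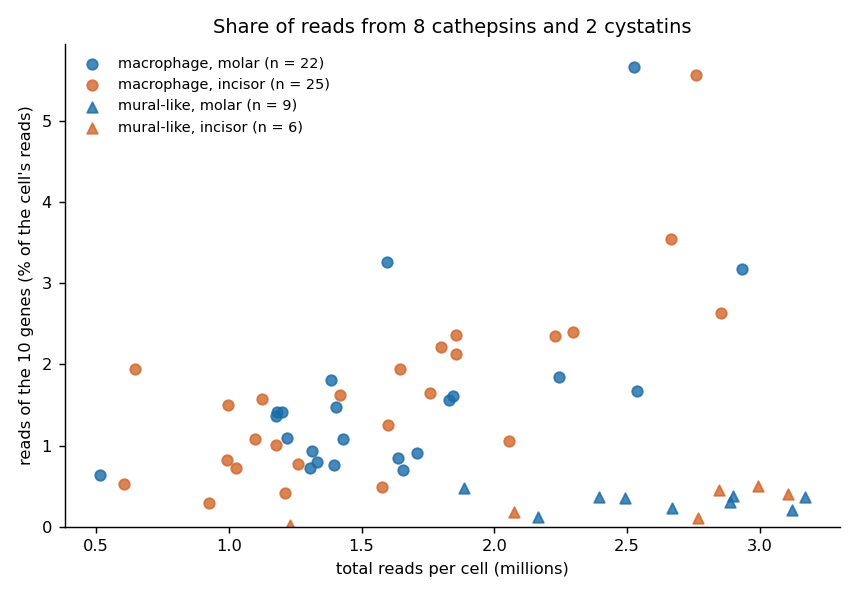
Share of each cell's reads that came from the 10 genes (vertical axis, percent) against the cell's total reads in units of 1000000 (horizontal axis). Each circle is 1 macrophage-class cell and each triangle 1 mural-like cell, coloured by tissue; mural-like cells, although read more deeply, stay at or below 0.509%, while macrophage-class cells reach 5.66%.

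Between the classes, 9 of the 10 genes were at least 2-fold higher in the macrophage class on summed CPM, and Ctsc was the exception. A gene was measured when its level averaged 5 CPM or more across the classes. Of the 9798 genes measured, 35.0% were at least 2-fold higher in the macrophage class and 35.7% in the mural-like class, and of the 2142 genes averaging 100 CPM or more 30.1% were higher in the macrophage class. The median log2 ratio of the 10 genes, with 1 CPM added to each level, was 2.76, against -0.07 over all genes measured. The same count of 9 was found within molars alone and within incisors alone, where 41.9% and 40.3% of the genes measured, and 31.3% and 27.8% of those averaging 100 CPM or more, were that much higher. The classes also differed in library quality: Malat1, a nuclear RNA, took a median of 3.52% of reads in macrophage-class cells and 1.27% in mural-like cells, and the macrophage-class libraries were shallower. The part of this in the class difference was not tested. Intervals given with folds below are 95% intervals for counting error only. The reads carry no molecular identifiers, so copies of 1 molecule count more than once, and the spread between cells was far wider than these intervals.

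Ctss, an endopeptidase that trims the class II chaperone and stays active at neutral pH, separated the classes completely. It was read in all 47 macrophage-class cells, at 82.3 CPM in the lowest (incisor cell 8), 1147 in the median and 8593 in the highest (molar cell 30). A read in every macrophage-class cell was found for 0.633% of the genes measured, among them Ctss, Ctsb and Ctsc. None of the 15 mural-like cells had a Ctss read. Summed over cells the level was 2141 CPM (2131 to 2152) against 0, at least 27632-fold higher when 3 reads over the mural-like class are taken as the floor. Only 5 of the 9798 genes measured (0.0510%) had every macrophage-class cell above every mural-like cell. The other 4 were Csf1r, which defined the class, the complement gene C1qa, the adaptor gene Fyb and the inhibitory receptor gene Sirpa.

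Ctsh, an aminopeptidase, also had no read in any mural-like cell, as did 14.1% of the genes measured. In the macrophage class it was more patchy: 38 of 47 cells had a read, the lowest stood at 0, the median at 140.3 CPM and the highest, molar cell 8, at 1904. The summed level was 514 CPM, at least 6629-fold above the same floor. For both genes, 0 of 15 mural-like cells leaves room for reads in up to 20% of such cells, taking 3 cells as the limit, and the exact Clopper-Pearson 95% interval reaches 21.8%.

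The other papain-type endopeptidases were read in both classes. Ctsb, the most abundant of the 10 by read count, ran from 483 CPM (incisor cell 8) through a median of 3905 to 27221 (incisor cell 25) in the macrophage class. Mural-like cells ran from 0 (incisor cell 2) through 678 to 2241 (molar cell 4), and 34 of the 47 macrophage-class cells lay above the highest of them. Summed, Ctsb stood at 6001 against 895 CPM, 6.70-fold higher (6.63 to 6.78). Ctsl, a close relative, had 0, a median of 216.3 and a highest level of 1662 CPM in the macrophage class, against 0, 0 and 434 in mural-like cells. Its sums were 414 and 121 CPM, a 3.43-fold difference (3.32 to 3.54), and the cells of both classes overlapped widely.

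Ctsz, a carboxypeptidase, had a lowest level of 0 (molar cell 6), a median of 1362 and a highest level of 10569 CPM (incisor cell 31) in the macrophage class. In mural-like cells these were 0, 187.7 and 1509, and 22 macrophage-class cells exceeded the highest. The summed levels of 2001 and 290 CPM differed 6.91-fold (6.78 to 7.04).

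Ctsc, a dipeptidyl peptidase that activates the serine proteases of immune granules, was the one gene within 2-fold. Every macrophage-class cell had a Ctsc read, yet the levels spread from 6.01 CPM (molar cell 3) through a median of 456 to 7041 (incisor cell 31). Of the mural-like cells 11 of 15 had a read, with a lowest level of 0, a median of 839 and a highest of 2786 CPM (incisor cell 32). The summed level was 1454 CPM in the macrophage class and 902 in the mural-like class, a ratio of 1.61 (1.59 to 1.63), while the median over cells lay higher in the mural-like class. Some macrophage-class cells carried much Ctsc and 27 of 47 lay below the mural-like median.

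The 2 cathepsins of other catalytic types followed the majority. Ctsd, the aspartic protease of the lysosome, was at 0, a median of 1526 and a highest level of 12512 CPM (incisor cell 25) in the macrophage class and at 0, 172.5 and 540 (molar cell 22) in the mural-like class. Its sums of 2512 and 253 CPM differed 9.92-fold (9.72 to 10.1), and 33 macrophage-class cells lay above every mural-like cell. Ctsa, a serine carboxypeptidase that also shields lysosomal beta-galactosidase and neuraminidase from breakdown, had 0, 1358 and 5466 CPM in the macrophage class against 0, 0.482 and 1210 in the mural-like class. Only 8 mural-like cells had a Ctsa read, 7 of them above 1 CPM. Summed, the levels were 1843 and 337 CPM, 5.46-fold apart (5.37 to 5.56).

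Both inhibitor genes were higher in the macrophage class as well. Cst3 was at 0, a median of 1323 and a highest level of 10316 CPM (molar cell 30) there, and at 0, 180 and 992 (incisor cell 22) in mural-like cells. Its sums were 1904 and 236 CPM, 8.05-fold apart (7.88 to 8.23). Cstb had 0, 295 and 2127 CPM against 0, 93.9 and 320, with sums of 387 and 107 CPM, 3.60-fold apart (3.49 to 3.72). For Cst3 26 macrophage-class cells and for Cstb 23 exceeded the highest mural-like cell.

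**Figure D2:**
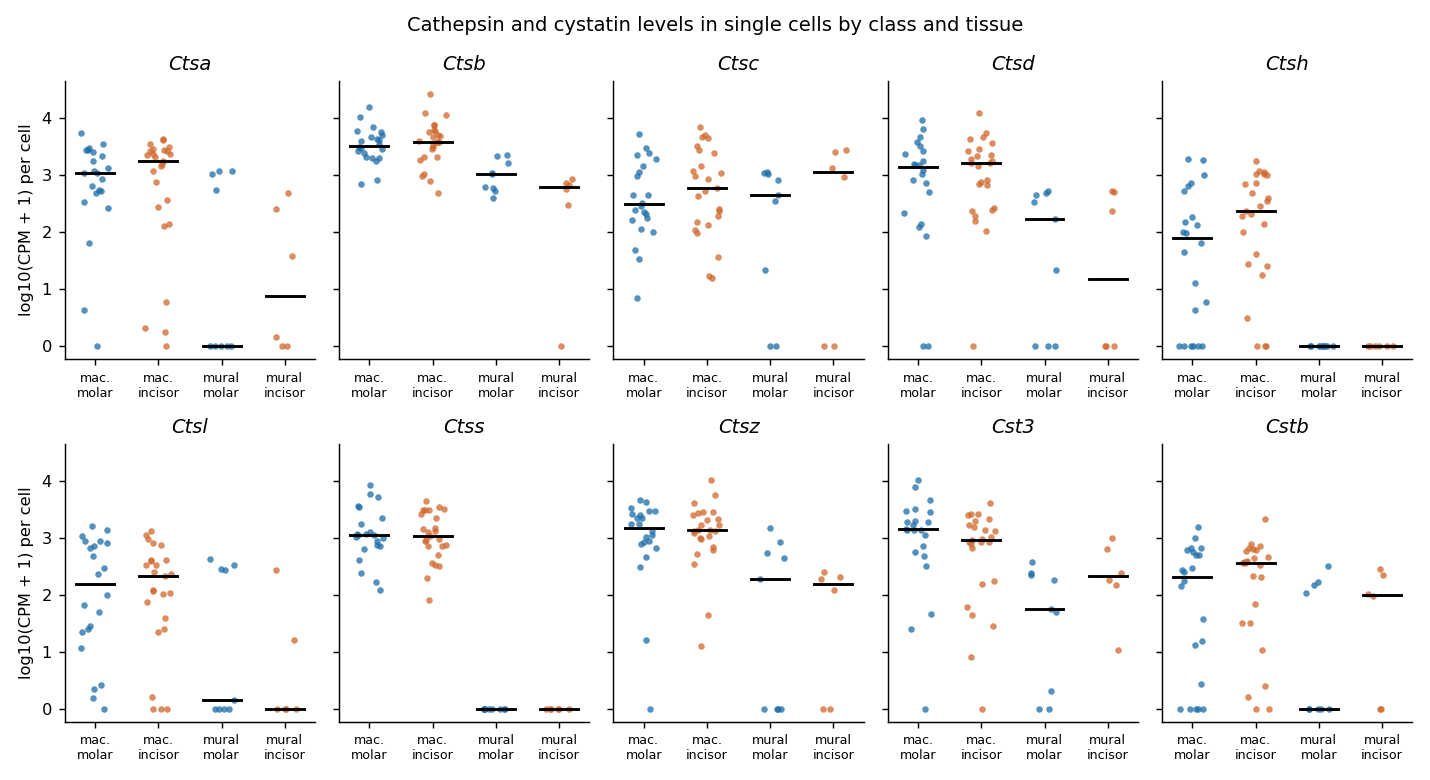
Level of each of the 10 genes in each cell as log10(CPM + 1), with 1 panel per gene, 1 point per cell and the median as a bar, for macrophage-class (mac.) and mural-like (mural) cells of molars and incisors. Ctss shows no overlap between the classes, from 82.3 CPM upward in the macrophage class against 0 in all 15 mural-like cells, while Ctsc overlaps throughout.

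Within each tissue the folds kept their direction but not their size, with molars given first in each pair. Ctsb was 4.51-fold and 12.1-fold higher in the macrophage class, Ctsz 5.32-fold and 13.3-fold, Ctsa 3.67-fold and 13.1-fold, Ctsd 8.81-fold and 10.9-fold, and Ctsl 2.99-fold and 5.95-fold. Cst3 ran the other way, with 18.8-fold in molars and 3.39-fold in incisors, and Cstb stood at 4.07-fold and 2.98-fold. Ctsc was 1.90-fold and 1.25-fold higher. Several incisor values leaned on a single mural-like cell among 6: without incisor cell 22 Ctsa was 27.8-fold and Cst3 5.21-fold higher, and without incisor cell 32 Ctsl was 93.0-fold higher. In molars Cstb was 6.86-fold higher without molar cell 1.

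**Figure D3:**
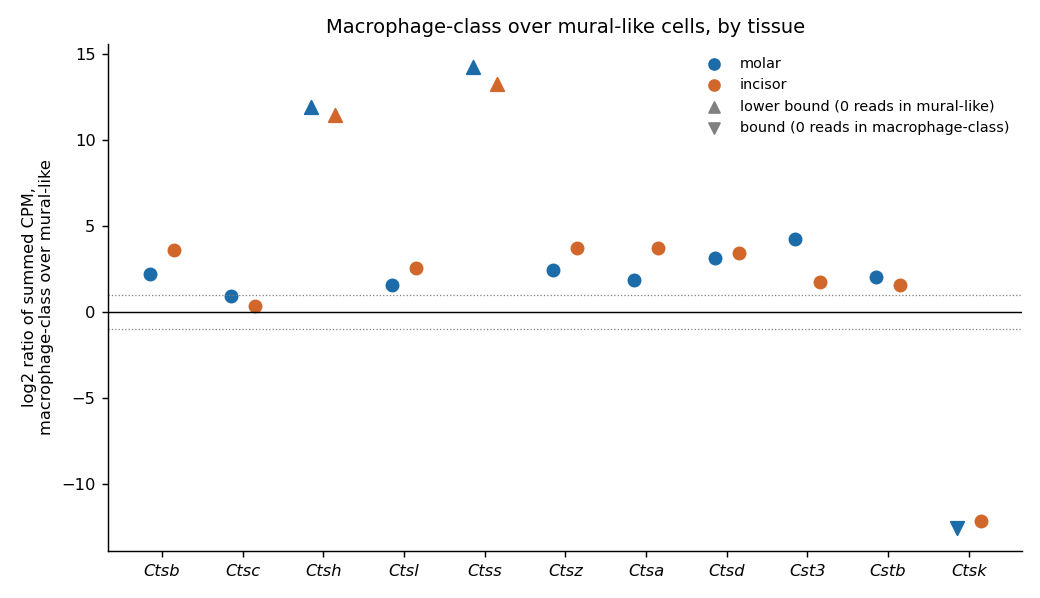
Log2 ratio of summed CPM, macrophage-class over mural-like, for the 10 genes and for Ctsk, in molars (blue) and incisors (orange). Circles are ratios, triangles are bounds from a floor of 3 reads where a class had no read, and dotted lines mark 2-fold; Ctss and Ctsh lie at bounds above 11, Ctsc lies within the lines in both tissues and Ctsk lies far below 0, in incisors on 1 macrophage-class read.

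Ctsk, a collagen-cutting cathepsin best known from osteoclasts, had the opposite distribution to its neighbour Ctss. The 2 genes lie next to each other on chromosome 3, at chr3:95499256-95509362 and chr3:95526786-95556403 on GRCm38 (plus strand for both), 17.4 kb apart with no annotated gene between. Ctsk had 13669 reads in mural-like cells and 1 in macrophage-class cells (incisor cell 16), 353 against 0.0134 CPM, a ratio of 26413 whose counting interval runs from 4740 to 1043350. It was read in 7 of 15 mural-like cells. In molar cells 4, 13, 17, 23 and 31 it stood at 1245, 1183, 376, 928 and 1166 CPM, in incisor cells 22 and 24 at 226 and 515, and at 0 in the other 8. The other 5 osteoclast markers listed, Acp5, Mmp9, Ocstamp, Dcstamp and Calcr, had no read in any mural-like cell. Each of the 6 had a read in the macrophage class, but not all 6 in either tissue. Ctsk, Mmp9, Ocstamp and Calcr were at 0 in molar macrophage-class cells, and Dcstamp was at 0 in incisor ones. The summed level of the 6 was 0 in the lowest macrophage-class cell, 193 CPM in the median and 3299.9 in the highest. Of the 6 fibroblast markers listed, the collagen genes Col1a1, Col1a2 and Col3a1 were read in mural-like cells, at a summed level of 16.1 to 10952 CPM, and Dcn, Lum and Pdgfra were at 0. The part of other cell types in the Ctsk level was not tested.

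Of the 14 other cathepsin genes in the table, Ctsk, Ctsf, Ctso and Ctse had reads. Ctsf, a further papain-type protease, stood at 58.7 CPM in the macrophage class and 81.7 in the mural-like class, and the direction turned without molar cell 13 or incisor cell 22 (1.35-fold and 1.32-fold higher in the macrophage class). Ctso stood at 28.9 and 33.4 CPM, with 97.4% of its mural-like reads in incisor cell 22, without which it was 30.5-fold higher in the macrophage class, and without incisor cell 17 it was 2.91-fold higher in the mural-like class. Ctse, an aspartic protease, came with all but 1 of its 2984 reads from molar cell 30. Of 17 other cystatin and stefin genes in the table, 3 had a read and none reached a mean of 5 CPM over the classes.

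The start regions of 4 members are shown because they carry short motifs that pairs of them share. The promoter table (RefSeq, GRCm38.p6) had an entry for 7 of the 10 members, Ctsa with 2 start sites, and none for Ctsb, Ctsh and Cstb. Each window runs from 250 bases before the start site to 15 bases into the transcript, 5′ to 3′ on the gene's strand, with motif matches in capitals. The E-box CACGTG, the core that MiT/TFE factors and other basic helix-loop-helix factors bind, was searched together with its longer form TCACGTGA, which contains it. Both read the same on either strand.

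The windows of Ctsd (chr7:142387813-142388077, minus strand) and of the second Ctsa start site (chr2:164833523-164833787, plus strand) held the longer form.
Ctsd: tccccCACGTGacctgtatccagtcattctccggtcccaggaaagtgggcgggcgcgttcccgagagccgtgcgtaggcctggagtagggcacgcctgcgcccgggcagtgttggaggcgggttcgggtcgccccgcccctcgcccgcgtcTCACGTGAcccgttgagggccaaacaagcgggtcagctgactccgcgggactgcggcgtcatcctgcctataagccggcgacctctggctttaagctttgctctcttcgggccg
Ctsa: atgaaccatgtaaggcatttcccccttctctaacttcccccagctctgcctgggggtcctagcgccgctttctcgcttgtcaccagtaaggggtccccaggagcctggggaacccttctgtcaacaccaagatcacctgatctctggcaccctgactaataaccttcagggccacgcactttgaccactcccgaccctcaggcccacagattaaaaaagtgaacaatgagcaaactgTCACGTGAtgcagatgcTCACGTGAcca
Ctsa had TCACGTGA at 2 places, starting 13 bases before the start site and at base 5 of the transcript. Ctsd had it at 99 bases before the start site and a further CACGTG at 245 bases before, and Ctsl had CACGTG at 236 bases before. So 3 of 7 members with an entry (42.9%) held CACGTG, and 2 (28.6%) held TCACGTGA. Of all 32851 promoter windows of this length 6.46% hold CACGTG and 0.892% hold TCACGTGA. The units differ, since the member figures count genes, whose windows number 8, and the others count single windows. The motifs were chosen after the data were seen, and no enrichment was tested. The window of the first Ctsa start site held no motif. The start sites used for these 3 members, 142387827 for Ctsd, 164833773 for Ctsa and 64370520 for Ctsl, lie inside the GENCODE M21 genes. Those genes begin at 142388038, 164832873 and 64370890, so the matches depend on the start sites chosen.

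The second motif was GAGGAAGT, an ETS-type sequence of the kind the myeloid factor PU.1 binds, searched on both strands and overlapping neither form of the E-box. It was found in Ctss (chr3:95526536-95526800, plus strand) and Ctsc (chr7:88277835-88278099, plus strand), in both as its reverse complement, which is what the capitals mark.
Ctss: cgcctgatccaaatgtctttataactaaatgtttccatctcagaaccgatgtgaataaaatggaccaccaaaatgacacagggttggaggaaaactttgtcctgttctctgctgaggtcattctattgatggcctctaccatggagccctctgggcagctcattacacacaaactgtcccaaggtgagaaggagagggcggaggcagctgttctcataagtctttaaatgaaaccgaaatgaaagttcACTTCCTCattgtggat
Ctsc: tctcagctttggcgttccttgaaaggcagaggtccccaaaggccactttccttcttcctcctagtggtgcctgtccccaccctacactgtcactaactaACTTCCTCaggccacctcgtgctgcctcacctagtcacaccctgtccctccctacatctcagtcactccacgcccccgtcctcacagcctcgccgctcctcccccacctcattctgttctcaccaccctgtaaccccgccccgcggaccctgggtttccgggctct
In Ctss it began 2 bases before the start site and in Ctsc 151 bases before. Of all windows 2.66% hold it. Ctss and Ctsc, whose windows share this motif, were a member with no read in mural-like cells and the member with the smallest class difference. The window of Ctsk held none of the motifs.

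Levels of different genes can be compared only per length, so reads per kilobase of exon per 1000000 reads (RPKM) were computed from GENCODE M21 exons. In the macrophage class the order was Ctss at 1577 RPKM, Cst3 at 1504, Ctsz at 1388, Ctsd at 1068, Ctsb at 992, Cstb at 642, Ctsa at 391, Ctsc at 250.4, Ctsh at 114 and Ctsl at 63.8. The cells' ranges overlapped between all neighbours in this order, and for example Ctss ran from 60.6 to 6328 RPKM and Ctsz from 0 to 7335. With the length of the principal transcript in place of all exons Cst3 came first, at 2213 RPKM against 1580 for Ctss, and Ctsc and Ctsh stood at 583 and 318 RPKM. Reads of overlapping genes could enter these values, since the sources do not say whether the counting used strand: 34.4% of the exon bases of Ctsd overlap Gm49369, 26.8% of Ctsl overlap Gm47123 and Gm49230, 17.4% of Ctsa overlap Neurl2 and Pltp, and 12.8% of Ctsb overlap Fdft1.

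The cathepsin with the highest RPKM differed from cell to cell. Among the 47 macrophage-class cells it was Ctsz in 20, Ctss in 14, Ctsd in 7, Ctsb in 3, Ctsa in 2 and Ctsc in 1. Molars and incisors gave a like picture, with Ctsz first in 9 of 22 and 11 of 25 cells and Ctss in 7 of each. Of the 14 mural-like cells with any cathepsin read, Ctsc was highest in 5, Ctsz in 4, Ctsb in 3, Ctsa in 1 and Ctsd in 1. In incisor mural-like cells Ctsc led in 4 of 5, and in molar mural-like cells in 1 of 9, or 2 of 9 with the length of the principal transcript.

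Summed over cells, Ctsc made up 42.1% of the 8 cathepsins per length in incisor mural-like cells and 12.2% in molar mural-like cells, against 5.26% and 3.12% in the macrophage class of incisors and molars. Ctsz was the largest part in molar mural-like cells at 34.3%. In the macrophage class Ctss took 31.5% in molars and 23.2% in incisors, and Ctsz 24.7% and 22.95%. These shares depend on the length used. With the principal transcript Ctsc made up 59.9% and 22.1% in incisor and molar mural-like cells and 10.2% and 6.31% in the macrophage class of incisors and molars, and in incisor macrophage-class cells Ctsb, at 20.2%, lay above Ctss, at 19.3%. Ctsh went from 2.01% to 4.67% in incisor and from 1.88% to 4.54% in molar macrophage-class cells, and Ctsz from 17.3% to 10.5% in incisor mural-like cells.

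**Figure D4:**
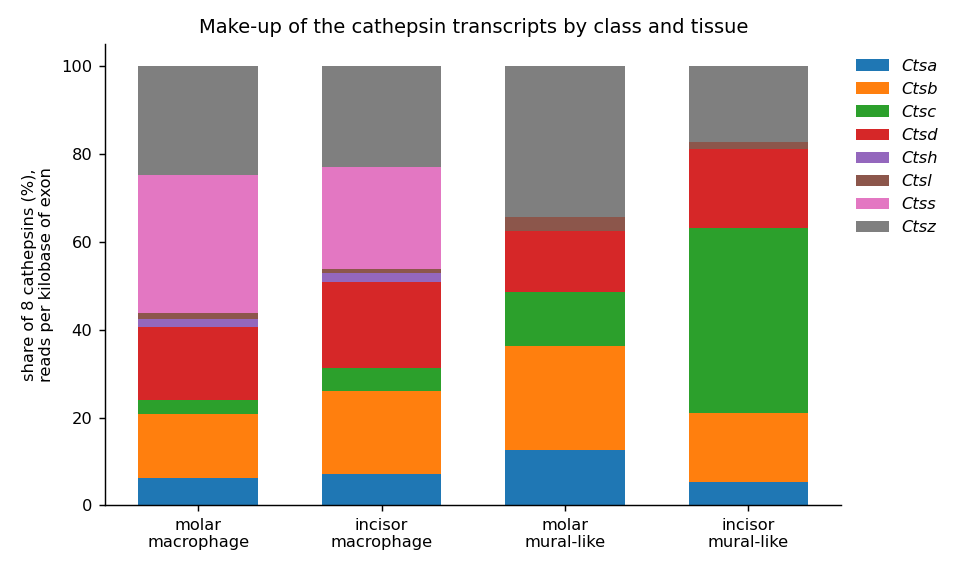
Make-up of the 8 cathepsins by class and tissue, each bar adding to 100% of their summed reads per kilobase of exon. Ctss and Ctsh appear in the macrophage columns and are at 0 in the mural-like columns, and Ctsc takes 42.1% of the incisor mural-like column.

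The balance of inhibitor and protease transcripts was set out as Cst3 against the sum of the 8 cathepsins, per length. Cystatins block cysteine proteases, and this sum also holds the aspartic protease Ctsd and the serine protease Ctsa. Ctsd made up 18.3% of it in the macrophage class and 15.3% in the mural-like class, and Ctsa 6.69% and 10.2%. The ratio is therefore not one of inhibitor to its targets alone. Cst3 stood at 35.3% of that sum in molar macrophage-class cells, 17.7% in incisor macrophage-class cells, 13.9% in molar mural-like cells and 52.1% in incisor mural-like cells. Cstb stood at 10.4%, 11.5%, 18.8% and 38.6% in the same order. With the length of the principal transcript Cst3 came to 45.1%, 21.7%, 15.95% and 46.8% in the same order. The gap in Cst3 between molar macrophage-class and incisor mural-like cells thus depended on the length used. Incisor cell 22 gave 47.3% of the Cst3 reads of incisor mural-like cells. Cstb came to 23.5% in incisor mural-like cells with the length of the principal transcript. Single cells spread widely: Cst3 exceeded the summed cathepsins in 1 of 47 macrophage-class cells and in 1 of 15 mural-like cells, incisor cell 2, which had no cathepsin read.

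Between molars and incisors the 10 genes differed little when all 32 cells of each tissue were summed. Ctsc was at least 2-fold apart, 2.17-fold higher in incisors (2.15 to 2.20), and 50.9% of 9934 genes measured were that far apart (28.1% higher in incisors), or 19.4% of the 2051 genes averaging 100 CPM or more. Without incisor cell 4 or incisor cell 25 the difference of Ctsc was 1.99-fold. The other 9 ranged from 1.56-fold higher in incisors (Ctsb) to 1.45-fold higher in molars (Cst3). These sums mix the classes in unlike proportions. Mural-like cells gave 23694811 of the 61106898 molar reads and 15018982 of the 55880462 incisor reads. The part of this mix in the differences was not tested.

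Within the macrophage class none of the 10 was 2-fold apart between the tissues, where 56.8% of 8668 genes measured and 25.3% of the 1950 averaging 100 CPM or more were. Cst3 had 0, a median of 1417 and a highest level of 10316 CPM in molar cells and 0, 917 and 4181 in incisor cells, and its sums of 2526 and 1345 CPM gave a 1.88-fold higher level in molars (1.86 to 1.90). Ctsc had a lowest level of 6.01, a median of 312 and a highest of 5403 CPM in molar cells and 15.1, 592 and 7041 in incisor cells, with sums of 1025 and 1839 CPM, 1.79-fold higher in incisors (1.77 to 1.82). Ctsz was level, at 2013 and 1990 CPM. The cells of the tissues overlapped for every gene.

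Among mural-like cells 5 of the 8 genes measured were at least 2-fold apart between the tissues, where 68.6% of the 7923 genes measured and 43.6% of the 2211 averaging 100 CPM or more were. Ctsa, Ctsl and Ctsz were higher in molars, as were 31.4% of the genes measured, and Ctsc and Cst3 in incisors, as were 37.3%. Ctsc is the clearest to read cell by cell. In molar mural-like cells it ran from 0 through a median of 446 to 1144 CPM, and in incisor mural-like cells it stood at 0 in cells 2 and 10 and at 937, 1368, 2547 and 2786 in cells 24, 22, 28 and 32. Its sums of 541 and 1473 CPM differed 2.72-fold (2.67 to 2.78), and the cells overlapped.

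Cst3 had 0, a median of 56.4 and a highest level of 383 CPM in molar mural-like cells and 9.98, 217.4 and 992 in incisor mural-like cells, 2.95-fold apart on the sums (2.83 to 3.08) and 1.92-fold without incisor cell 22. Ctsa was read in 4 of 9 molar cells, at 556, 1074, 1202 and 1210 CPM in cells 22, 17, 13 and 23, and in incisor cells it ran from 0 to 496. Its sums were 2.99-fold apart (2.85 to 3.13), or 6.33-fold without incisor cell 22, while its median was 0 in molars and 19.1 CPM in incisors. Ctsl was 2.64-fold higher in molars and 41.2-fold without incisor cell 32. Ctsz was 2.52-fold higher and 1.87-fold without molar cell 4. Cstb was 1.61-fold higher in incisors and 2.72-fold without molar cell 1. With any single cell left out Ctsa, Ctsl and Ctsc stayed at least 2-fold apart, and Ctsz and Cst3 did not. With the median over cells in place of the sum, Ctsc and Cst3 stayed at least 2-fold apart at log2 ratios of -1.37 and -1.93, Ctsl and Ctsz came to 0.55 and 0.26, and Ctsa turned to -4.33.

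**Figure D5:**
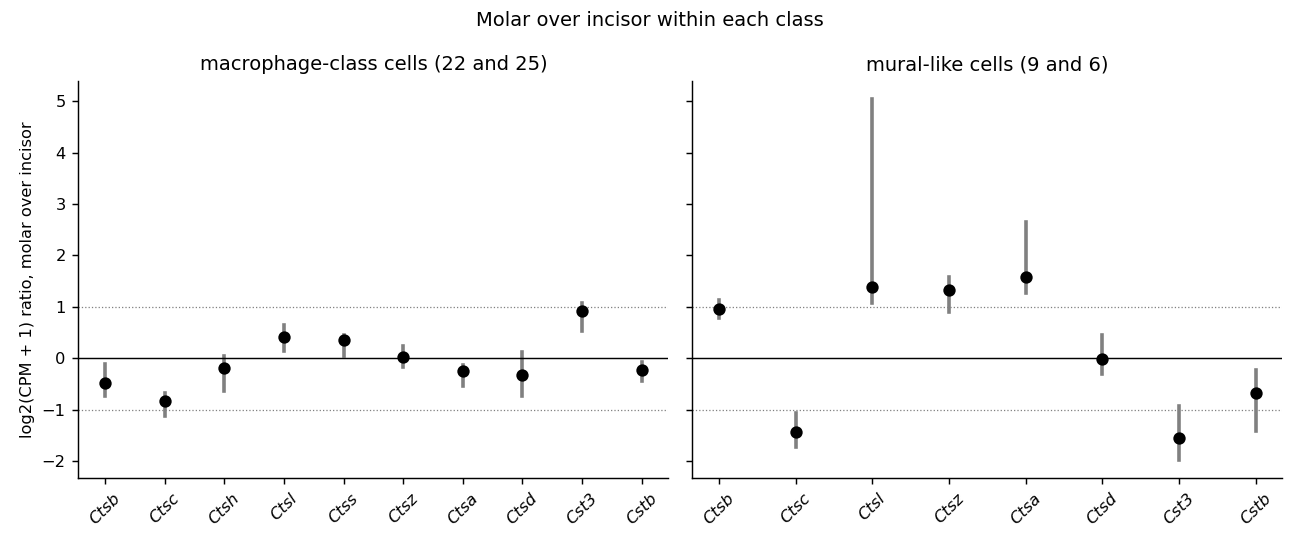
Log2 ratio of molar over incisor on summed CPM with 1 CPM added, within macrophage-class cells (left) and mural-like cells (right). Points are the ratios, grey bars the range when each cell is left out in turn and dotted lines 2-fold; all 10 points of the macrophage class lie within the lines, and the bar of Ctsl in mural-like cells reaches 5.04.

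Across the 47 macrophage-class cells the members were positively related to one another. The median Spearman rho of the 45 pairs was 0.26, against 0.04 over all pairs of the 1557 genes read in at least 50% of these cells, and 43 of the 45 were above 0, as were 59.1% of all pairs. In molars alone 39 of the 45 were above 0 (57.5% of all pairs) and in incisors alone 43 (55.9%). The highest were Ctsb with Ctss at 0.68 (0.62 in molars, 0.75 in incisors), Ctsb with Ctsd at 0.67 and Ctsa with Ctsb at 0.65. Ctsz ranged from 0.01 with Ctsc and 0.03 with Ctsd through 0.08 with Ctsb, 0.15 with Ctss and 0.20 with Ctsh to 0.32 with Ctsl, and Ctsc was at -0.07 with Cst3. The points share library depth and RNA quality: the summed level of the 10 genes had a rho of 0.66 with the cell's total reads and of -0.58 with its share of Malat1, and 0.04 with the number of genes read. Their part in the relations was not tested. Ctss had a rho of -0.01 with Cd74, the class II chaperone that its protein trims, and H2-Aa, a class II chain, had no read in these cells. Cd74 was read in 20 of the 47 cells, fewer than the 50% asked of the gene pairs above. Most of its points were thus tied at 0, and this rho says little about the relation of the 2 genes.

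The genes whose level followed the sum of the 10 most closely in the macrophage class, of 1450 compared, were Apoe at a rho of 0.69, Ubb at 0.66, Lyz2 at 0.65, Prdx5 at 0.65 and Fam105a at 0.63, and the median gene was at 0.03. In molars and incisors alone Apoe was at 0.62 and 0.71, Ubb at 0.47 and 0.77 and Lyz2 at 0.79 and 0.62. Prdx5 was at 0.69 and 0.58, and Fam105a at 0.32 and 0.71. The sum itself had a rho of 0.66 with total reads, and the part of depth in this ranking was not tested. Apoe encodes a lipid carrier, Ubb a ubiquitin precursor, Lyz2 the lysozyme of myeloid cells and Prdx5 a peroxiredoxin. Lyz2 stood at 3606 CPM in the macrophage class and had no read in mural-like cells. Ubb was higher in mural-like cells, at 10927 against 3047 CPM.

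Other genes of the lysosome were described from lists. Their counts are to be set beside the shares over all 9798 genes measured. Of those genes 35.0% were at least 2-fold higher in the macrophage class and 35.7% in the mural-like class, with a median log2 ratio of -0.07. Of 9 measured proteases and partners that process or protect cathepsins, 8 were at least 2-fold higher in the macrophage class and none in the mural-like class (median log2 ratio 1.81). Lgmn, the asparaginyl endopeptidase that cuts several cathepsins to their mature chains, stood at 2660 against 222 CPM, 11.97-fold higher (11.7 to 12.2). Grn, the progranulin gene, stood at 2091 against 202 CPM and Psap, the saposin precursor gene, at 802 against 250.2 CPM, 3.21-fold higher and 7.42-fold without molar cell 1.

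Lysosomal membrane genes split: 8 of 16 measured were at least 2-fold higher in the macrophage class and 2 in the mural-like class, with a median of 1.24. Cd68, a glycoprotein of macrophage lysosomes, stood at 1425 against 2.69 CPM, the mural-like reads all coming from molar cell 1. Lamp1, a general lysosomal glycoprotein, was 1.93-fold higher (1.90 to 1.96) and Cd63, a tetraspanin of late endosomes, 1.29-fold lower. Of 15 proton pump subunits measured, 8 were at least 2-fold higher in the macrophage class and 1 in the mural-like class (median 1.34), with Atp6v0b at 1283 against 112 CPM, Atp6v1b2 at 506 against 187 (4.48-fold higher without molar cell 4 and 5.53-fold without incisor cell 28) and Atp6ap1 at 453 against 247 CPM.

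The genes of mannose 6-phosphate tagging and sorting were nearest to even, with 3 of 11 at least 2-fold higher in the macrophage class, 2 in the mural-like class and a median of 0.37. Both counts lay below the shares over all genes measured. M6pr, a receptor that carries tagged enzymes, stood at 536 against 224 CPM, Ap1b1, an adaptor subunit, at 308 against 64.1 (9.27 in the mural-like class without molar cell 17) and Gga1, a sorting adaptor, at 119 against 92.4 CPM, a log2 ratio of 0.37 that became -0.05 without incisor cell 3. Of the 10 MiT/TFE factors and their regulators, 6 were at least 2-fold higher in the macrophage class and 1 in the mural-like class (median 1.499). Flcn stood at 288 against 67.3, Rragc at 275 against 68.2 and Fnip1 at 236 against 3.56 CPM, and Fnip1 had no mural-like read outside incisor cell 22.

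Of 7 class II presentation genes 3 were measured and 2 were at least 2-fold higher in the macrophage class. Cd74 stood at 214 CPM against no read, H2-DMa at 36.2 against 11.6 (0.365 in the mural-like class without incisor cell 32) and H2-DMb1 at 14.3 against 9.48 CPM. H2-DMb1 turned direction without incisor cell 27, to 1.11-fold higher in the mural-like class. Glb1, which encodes the lysosomal beta-galactosidase, stood at 27.1 and 26.1 CPM, with all mural-like reads in incisor cell 22, and was 1.63-fold higher in the mural-like class without incisor cell 25.

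When each cell was thinned to 1040000 reads, which left out 7 shallower macrophage-class cells and no mural-like cell, Ctsb, Ctsc, Ctss, Ctsz and Cst3 were each read in all 40 of the remaining macrophage-class cells, a share of 100% (exact Clopper-Pearson 95% interval 91.2 to 100%). In the 15 mural-like cells Ctsb had a read in 93.3% (68.1 to 99.8%), Cst3 in 86.7% (59.5 to 98.3%), Ctsc in 73.3% (44.9 to 92.2%), Ctsd and Ctsz in 60.0% (32.3 to 83.7%), Cstb in 53.3%, Ctsa, Ctsl and Ctsk in 46.7%, and Ctss and Ctsh in none. Ctsk had no read in the thinned macrophage-class cells. The intervals of these shares treat cells as independent draws and do not cover differences between animals. Unthinned, the macrophage-class counts were 47 of 47 for Ctsb, Ctsc and Ctss, 46 for Ctsz, 45 for Ctsa and Cst3, 44 for Ctsd, 43 for Ctsl, 40 for Cstb and 38 for Ctsh.

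The 2 cells of neither class were not averaged. Incisor cell 13 had both 839 Csf1r reads and 2301 CPM of Rgs5. In it Ctsb stood at 4324, Ctsz at 2977, Ctsl at 1289, Cstb at 1106 and Ctsd at 1027 CPM. Ctss stood at 556 and Ctsh at 308 CPM. These levels lay within the range of the macrophage class and above every mural-like cell. Ctsc at 1976 and Cst3 at 381 CPM lay within the range of both classes. Ctsa had no read, as in some cells of both classes. Molar cell 10, with neither Rgs5 nor Csf1r, had Cst3 at 893 and Ctsd at 178 CPM and no read of Ctss, Ctsc, Ctsh, Ctsz or Cstb.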

How the data were processed

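Single-cell Smart-Seq2 libraries of 32 molar and 32 incisor cells were used. The authors deposited raw read counts per gene symbol and cell in 1 table of 188 columns, of which 64 match a labelled cell by title and 124 match none and were not used. Per the submitters' processing notes, Trim Galore, HISAT2 (2), Seurat (3) and the mm10 build were used. Neither the counting tool and its strand setting nor the annotation or cell filters could be stated: not given in the sources used here. The 10 genes, the classes and the gene lists were chosen with earlier results of these data known.

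From the counts, reads were summed over the cells of a group and divided by the summed totals (CPM), with exact Poisson 95% intervals, and for folds an exact conditional binomial interval. Log2 ratios had 1 CPM added. Genes averaging 5 CPM or more across the groups were measured, and called at 2-fold. Where a group had 0 reads the floor was 3 reads over the group. With 1 sample per tissue no p-value was computed. Alternatives were the mean or median over cells, 10 CPM added, a total without Rn45s and Malat1, median-of-ratios scaling, other class bounds, no filter on low counts and each cell left out in turn. Leaving out incisor cell 2, other transcript lengths, the background at 100 CPM, the motifs and the count of cells led by Ctsz were chosen after the data were seen. Beside the 10 genes, those named are the 3 most read of each list, 8 set genes and the 5 most like the sum of the 10; Ctse, C1qa, Fyb and Sirpa were named after their values were seen. The ratio code was tested on simulated data. Positions and exon lengths are from GENCODE M21 (GRCm38, the assembly of mm10). Computation used SciPy 1.17.1, pandas 2.3.3 and NumPy 2.4.6 under Python 3.11.15.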

Additional observations from a re-analysis of the deposited data

Results flagged for a closer look

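Ctsb in incisor mural-like cells had a lowest cell set apart from the rest. Incisor cell 2 had no Ctsb read, the next lowest of the 6 cells stood at 305 CPM, and on a log2 scale the gap was 0.847 of the group's range, above the critical value of 0.625. In all, 16 such groups were examined. A chance rate of about 1 in 20 cannot be relied on here. The values are cells of 1 sample, not replicates, and a level of 0 widens the gap. Incisor cell 2 also had 922 genes read, the fewest of any cell, and no read of any of the 8 cathepsins.

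For 3 genes the difference between molars and incisors ran in opposite directions in the 2 classes, and the difference between the classes was not tested. The log2 ratio of molar over incisor was -0.26 in macrophage-class and 1.57 in mural-like cells for Ctsa, a gap of -1.83. It was -0.48 and 0.95 for Ctsb, a gap of -1.43. It was 0.91 and -1.55 for Cst3, a gap of 2.46. With the median over cells Ctsa in mural-like cells was at -4.33, the same direction as in the macrophage class, where the sum gave the opposite. The Ctsa and Cst3 values in mural-like cells move with incisor cell 22, to 2.64 and -0.94 without it.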

How the results depend on the processing

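With both tissues together, the count of 9 genes at least 2-fold higher in the macrophage class was found under every alternative run. These included each cell left out in turn and the run without incisor cell 2. Within molars alone the count did not hold, since Ctsc reached 2.21-fold without molar cell 19. Ctsc changed direction with the median over cells. The other class bounds could hardly change the count. A bound of 10 Csf1r reads lay below the fewest in the class, 44. A bound of 100 CPM of Rgs5 lay between the highest level in the class, 167 CPM, and the next, 4.34 CPM. Without a filter on low counts 33.5% of all genes, in place of 35.0%, were that much higher. Between all molar and incisor cells the count of 1 became 0 with the mean over cells, 3 with the median over cells, and 0 to 2 with 1 cell left out. In the macrophage class the count of 0 became 1 with the median over cells and 0 to 1 with 1 cell left out, and in mural-like cells the count of 5 ranged from 4 to 7. It was 4 with the median over cells, of which Ctsc and Cst3 were among the 5 and Ctsa, which turned, and Cstb were counted as well. The log2 ratio of Ctsa in mural-like cells was -4.33 with the median over cells, against 1.57. Median-of-ratios scaling moved the median of all genes by -0.20 in the class comparison and by 0.11 between the tissues, and Ctsd in mural-like cells, at -0.01, changed sign with it. Ctsz was the highest cathepsin in 20 of 47 macrophage-class cells with each of the 3 gene lengths. No paired analysis was possible because the cell numbers name cells and the labels name no animal. With 6 incisor mural-like cells, 1 cell can decide a value.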
